A study of Mus musculus with 6 samples.

Results

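The genes described here are those of the capillary lipoprotein lipase axis, namely Gpihbp1, Angptl4, Lpl, Lipg, Lmf1, Cd36, Fabp4, Fabp5 and Vldlr. These 9 of the 19057 genes named on the array were covered by 19 of the 45281 probes of the array, and every probe annotated with one of their symbols was taken. The genes were selected on the difference between Lrp5-/- and wild type (WT) retinas, which was known from these same arrays, so the differences of the members are given as a description, with no p-values. A probe counted as expressed, and was tested, where its detection p was under 0.05 on at least 3 of the 6 arrays. The detection p sets a probe's signal against that of negative control beads. Of the 19 probes, 10 probes of 6 genes met this rule, as did 20721 of all probes (11097 named genes).

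Lipoprotein lipase (LPL) is an enzyme that releases fatty acids from the triglycerides of circulating lipoproteins at the inner surface of capillaries. It is made by parenchymal cells, matured in their endoplasmic reticulum with the help of LMF1, carried across the endothelium and held in the capillary lumen by GPIHBP1, a protein of capillary endothelial cells, and inactivated by ANGPTL4, a secreted protein induced by fasting, fatty acids and hypoxia. Released fatty acids are taken up with the help of the membrane protein CD36 and bound inside cells by FABP4 and FABP5, while the receptor VLDLR binds triglyceride-rich lipoproteins. In the mouse retina, loss of Vldlr leads to vessels growing from the deep retina towards the photoreceptors.

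Total RNA of retinas from mice at postnatal day 8 was hybridised to Illumina mouse whole-genome bead arrays, 3 arrays from mice labelled Lrp5 KO (strain B6.129P2-Lrp5tm1Dgen/J, called Lrp5-/- here) and 3 from WT C57BL/6J mice. Lrp5 is a Wnt co-receptor, and the mutation is carried in the germ line, so that it is not limited to vessels. The groups came from separate stocks and no treatment is named for either, so that genotype and stock cannot be told apart. Each array held the RNA of 1 mouse as a biological replicate, and the litters are not given. The signal of each bead type is given as the rank-invariant normalised signal, which still contains the background, and signals of different probes are not set against each other. Non-normalised mean signals were 313 to 319 on the Lrp5-/- arrays and 199.97 to 431 on the WT arrays. The dimmest array was WT replicate 1, which also had the fewest detected probes (18167, against 20286 to 21388 on the other 5 arrays). The number of arrays limits the precision of each value.

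The tested probe of the targeted gene did not read lower in the retinas labelled Lrp5-/-. The only Lrp5 probe that was tested (ILMN_2942097) read 99.2, 91.3 and 95.7 in the retinas labelled Lrp5-/-, against 46.8, 59.5 and 56.1 in WT, a log2 fold change of 0.82 (SE 0.11, adjusted p = 0.0127 by limma). This probe was detected on all 3 arrays labelled Lrp5-/- but on only 1 WT array. Its WT values thus lay near background, and the arrays labelled Lrp5-/- alone met the detection rule. The other 3 Lrp5 probes were detected on no array. Where the tested probe lies relative to the altered part of the gene is not known, so that it checks nothing about the allele. The mutant arrays are called retinas labelled Lrp5-/- below.

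Across the axis, Gpihbp1 read higher and Angptl4 lower in retinas labelled Lrp5-/- than in WT, whereas the tested probes of Lpl, Lmf1, Fabp5 and Vldlr differed little, and Lipg, Cd36 and Fabp4 were not above background on any array. At an adjusted p under 0.05, 2 of the 10 tested probes were called, 1 higher and 1 lower. Over all 20721 tested probes 24 were called (0.116%), of which 6 were higher (0.0290%) and 18 lower (0.0869%). The groups did not overlap for 3 of the 10 probes, 2 higher and 1 lower, against 10.7% of all tested probes. Because the comparison chose the members, nothing is read from these counts. Whole retinas were measured, so that fewer cells of a type and less RNA per cell cannot be told apart. The median log2 fold change of the 10 probes was -0.02, beside 0.00 over all tested probes.

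**Figure D1:**
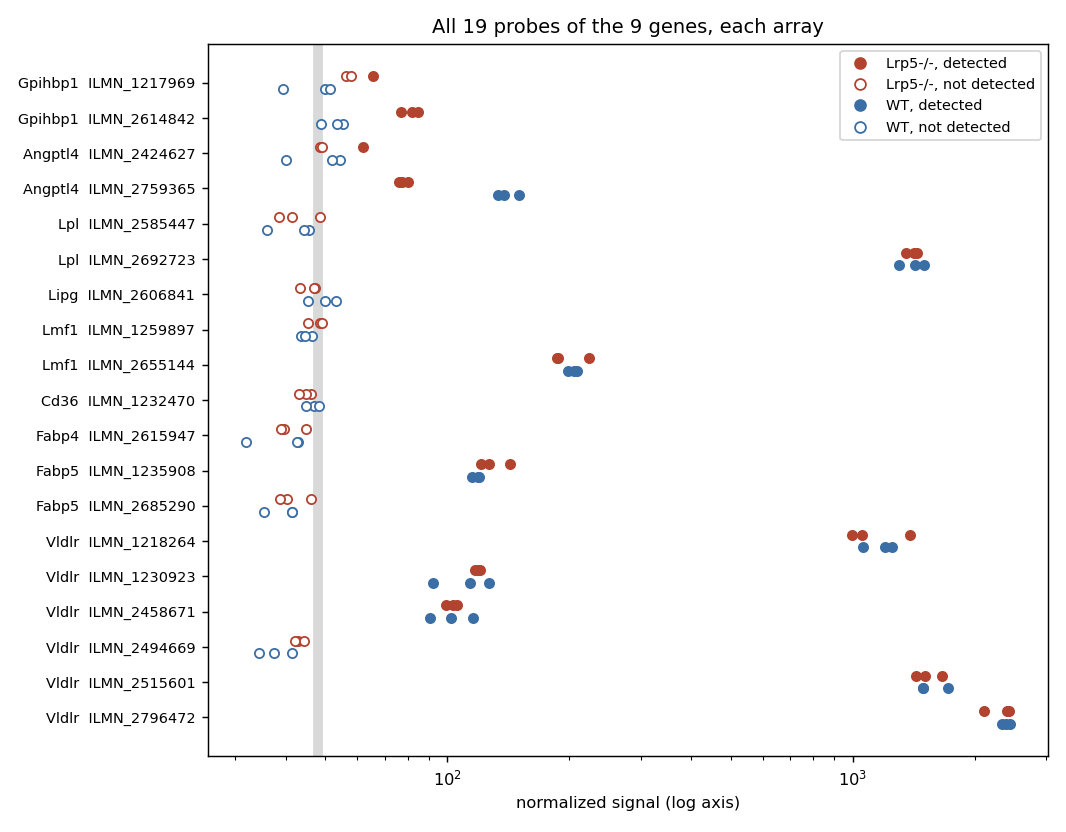
Normalised signal (log scale, arbitrary units) of the 19 probes of the 9 genes on each array, with retinas labelled Lrp5-/- above WT for each probe. Open symbols mark arrays where the probe was not detected, and the grey band spans the median signals of undetected probes on the 6 arrays (46.9 to 49.2). The probes of Lipg, Cd36 and Fabp4 are open on all 6 arrays. The groups stand apart at both Gpihbp1 probes, at Angptl4 ILMN_2759365 and, narrowly, at Fabp5 ILMN_1235908. They also stand apart at Vldlr ILMN_2494669, which was detected on no array, so that groups can lie apart within background signal.

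Gpihbp1, the carrier and anchor of LPL in capillaries, had 2 probes. Probe ILMN_2614842 read 81.9, 77.0 and 84.8 in the retinas labelled Lrp5-/-, against 48.9, 55.4 and 53.3 in WT. It was detected on all 3 arrays labelled Lrp5-/- and on none of the 3 WT arrays, where its detection p was 0.407, 0.114 and 0.197, and the groups did not overlap. The mean signals were 81.2 ± 3.94 in retinas labelled Lrp5-/- and 52.5 ± 3.32 in WT (SD, n = 3 each).

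Since WT arrays gave no detected signal for this Gpihbp1 probe, its difference has a bound only. Against the lowest signal of any detected probe on each WT array (69.8, 58.8 and 60.8), Gpihbp1 was at least 1.29-fold higher in retinas labelled Lrp5-/-. The measured signals differed by 0.63 on the log2 scale (SE 0.09, 95% interval 0.43 to 0.83), a fold of 1.55. The probe entered the test only through the arrays labelled Lrp5-/-, so it had to differ. Above the median of undetected probes it stood 32.7 ± 4.40 units in retinas labelled Lrp5-/- and 4.97 ± 2.63 in WT (SD, n = 3 each).

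The other Gpihbp1 probe, ILMN_1217969, read 56.3, 65.6 and 57.7 in retinas labelled Lrp5-/- and 39.4, 50 and 51.3 in WT. It was detected only on the array of replicate 2 labelled Lrp5-/- (detection p 0.0192) and was not tested. The groups did not overlap here either and lay in the same order as for the first probe, but no fold is given, as the signals did not exceed the lowest detected signals on average.

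Angptl4, the inhibitor of LPL, moved the other way. Probe ILMN_2759365 read 77.4, 75.9 and 79.8 in retinas labelled Lrp5-/-, against 138.1, 133.7 and 149.8 in WT. It was detected on all 6 arrays, and every array labelled Lrp5-/- lay below every WT array. Mean signals were 77.7 ± 1.97 in retinas labelled Lrp5-/- and 141 ± 8.32 in WT (SD, n = 3 each), a log2 fold change of -0.85 (SE 0.09, 95% interval -1.05 to -0.66), or a signal 1.81 times as high in WT.

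Background took up a large share of the Angptl4 signal in the retinas labelled Lrp5-/-, where the probe stood 29.2 ± 2.59 units above the median of undetected probes, against 93.0 ± 8.69 in WT (SD, n = 3 each). With a background correction based on the detection p (neqc), WT over Lrp5-/- came to 2.38-fold for Angptl4, a larger fold than without it. A second Angptl4 probe, ILMN_2424627, read 48.6, 61.9 and 49.0 in retinas labelled Lrp5-/- and 40.1, 54.4 and 51.9 in WT. It was detected only on the array of replicate 2 labelled Lrp5-/- (detection p 0.0449), its groups overlapped, and no fold is given for it.

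**Figure D2:**
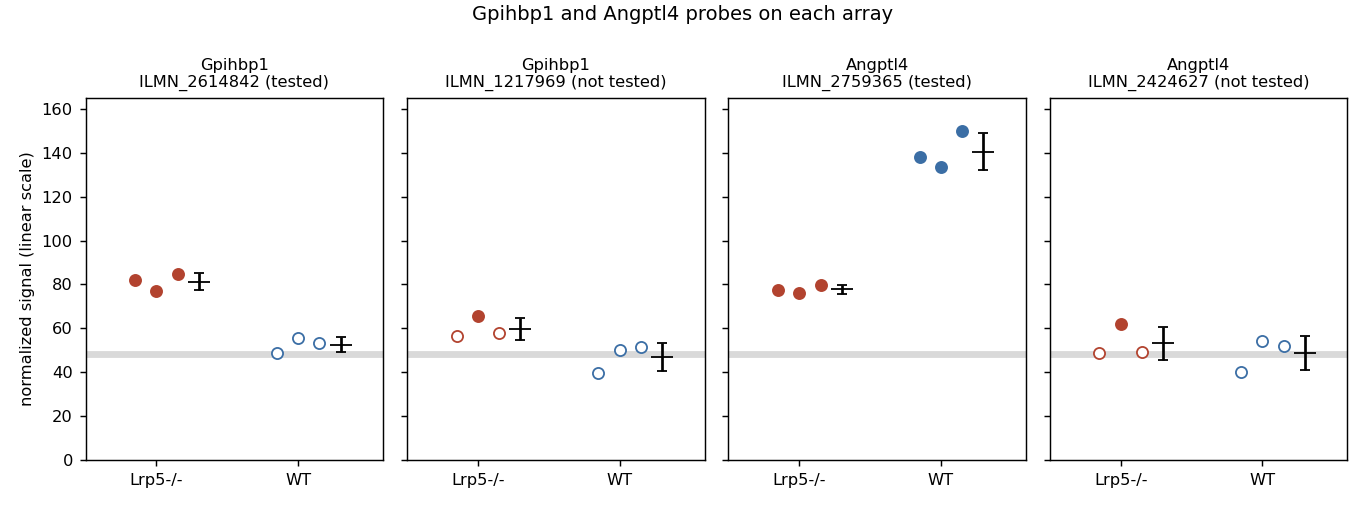
Normalised signal (arbitrary units) of Gpihbp1 and Angptl4 probes on each array, retinas labelled Lrp5-/- left of WT, with bars for the mean and SD of 3 arrays. Open symbols were not detected, and the grey band is the range of the median signal of undetected probes. Gpihbp1 (ILMN_2614842) is detected in the retinas labelled Lrp5-/- only, and Angptl4 (ILMN_2759365) lies at 75.9 to 79.8 there, below the 133.7 to 149.8 of WT.

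The detection rule has a threshold of 3 arrays. Among the members, Gpihbp1 ILMN_2614842 lay just inside it, with 3 arrays, while Gpihbp1 ILMN_1217969 and Angptl4 ILMN_2424627 lay just outside, with 1 array each. The other tested probes were detected on all 6 arrays.

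The enzyme and its maturation factor did not follow either lead gene. Lpl (ILMN_2692723) read 1354, 1412 and 1441 in retinas labelled Lrp5-/- and 1301, 1500 and 1423 in WT, so that the groups overlapped. Their log2 fold change was -0.00 (95% interval -0.20 to 0.20), an interval in folds of 0.868 to 1.15. A second Lpl probe, ILMN_2585447, was not detected on any array. Lmf1, which helps lipases fold and leave the endoplasmic reticulum, read 187.3, 223.0 and 186.7 in retinas labelled Lrp5-/- and 208.5, 205.5 and 198.9 in WT at probe ILMN_2655144. Its log2 fold change was -0.04 (95% interval -0.26 to 0.17), with overlapping groups.

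The lipoprotein receptor Vldlr had 5 tested probes among 6, and none of the 5 was called. Their 95% intervals together spanned log2 fold changes of -0.32 to 0.37, or folds of 0.799 to 1.29. Probe ILMN_2796472 read 2430, 2111 and 2406 in retinas labelled Lrp5-/- and 2331, 2390 and 2446 in WT (log2 fold change -0.05, 95% interval -0.25 to 0.16). ILMN_2515601 read 1511, 1429 and 1658 in retinas labelled Lrp5-/- and 1492, 1487 and 1713 in WT. ILMN_1218264 read 1053, 998 and 1387 in retinas labelled Lrp5-/- and 1060, 1203 and 1247 in WT. These 3 Vldlr probes had overlapping groups and log2 fold changes of -0.05 to -0.03.

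The other 2 tested probes of Vldlr had overlapping groups as well. ILMN_1230923 read 117.0, 120.5 and 118.8 in retinas labelled Lrp5-/- and 92.2, 113.6 and 126.5 in WT, a log2 fold change of 0.11 (95% interval -0.14 to 0.37). ILMN_2458671 read 99.4, 103.4 and 105.7 in retinas labelled Lrp5-/- and 102.1, 90.7 and 115.6 in WT, a log2 fold change of 0.01. In both, the WT arrays were spread more widely than the arrays labelled Lrp5-/-.

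Of the members for uptake and binding of the released fatty acids (Cd36, Fabp4 and Fabp5), only Fabp5 was expressed. Fabp5 (ILMN_1235908) read 121.2, 126.9 and 142.9 in retinas labelled Lrp5-/-, against 119.5, 115.2 and 119.1 in WT. The groups lay apart by a narrow gap, and the log2 fold change of 0.14 (SE 0.09, 95% interval -0.06 to 0.35) did not pass the test. Cd36 read 46.1, 44.8 and 43.1 in retinas labelled Lrp5-/- and 46.9, 44.9 and 48.2 in WT, at the level of undetected probes. Fabp4, the binding protein of adipocytes and of some capillary endothelium, read 39.5, 44.9 and 38.9 in retinas labelled Lrp5-/- and 31.9, 42.9 and 42.5 in WT.

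The endothelial lipase Lipg, a relative of LPL that acts mainly on phospholipids, read 43.4, 47.1 and 46.9 in retinas labelled Lrp5-/- and 49.8, 45.3 and 53.1 in WT. The 7 member probes that were detected on no array (those of Lipg, Cd36 and Fabp4 and 1 probe each of Lpl, Lmf1, Fabp5 and Vldlr) had signals of 31.9 to 53.1 and detection p-values of 0.204 to 0.981. No fold is given for them, and their genes were not detectable here rather than absent.

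**Figure D3:**
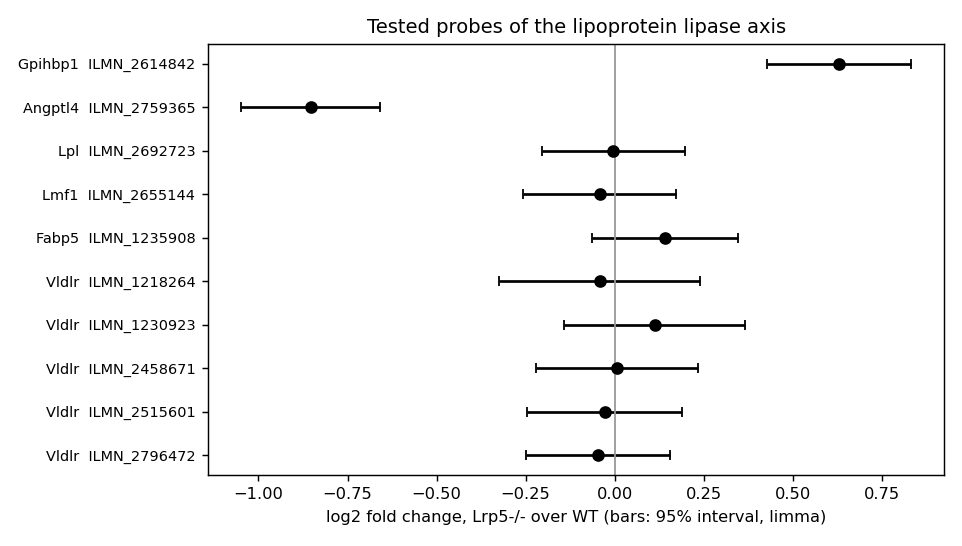
Log2 fold change (retinas labelled Lrp5-/- over WT) of each of the 10 tested probes, with 95% intervals from the limma fit on 3 arrays each. Gpihbp1 lies at 0.63 and Angptl4 at -0.85, and the 8 probes of the other 4 genes lie between -0.05 and 0.14 with intervals that include 0.

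The wider pathway was read from 6 lists of genes for LPL regulation, lipoprotein receptors, fatty acid handling, triglyceride turnover, PPAR and RXR receptors and the hypoxia response. Of 112 listed genes 79 were tested, and 1 of them passed the test, being lower (1.27%), beside 21 of 11097 tested genes in all. An unadjusted p under 0.05 was reached by 12 of the 79 genes and by 557 of all 11097. Of these 12, 8 were among the 15 tested hypoxia genes. The LPL regulation list held 1, the fatty acid list 2 and the PPAR and RXR list 1, and the other lists held none. The gene that passed was Mfsd2a, the transporter of lysophosphatidylcholine-bound docosahexaenoic acid in brain and retinal endothelium. Mfsd2a read 79.5, 83.9 and 77.9 in retinas labelled Lrp5-/-, against 250.5, 266.6 and 270.0 in WT (log2 fold change -1.71, SE 0.09, adjusted p = 6.3e-06 by limma).

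Among the other 16 tested genes of the fatty acid list, which had a median log2 fold change of -0.04 with Mfsd2a included, the next by p were Acsl5 (-0.20), an enzyme that activates fatty acids, and the transporter Slc27a2 (0.28). Of 16 tested cofactors, inhibitors and maturation factors of LPL none passed. In this list 15 of the 16 values were negative (median -0.07), and the median ranged between -0.13 and 0.07 over the processing alternatives. The 0.07 came with scaling to a common median, where the median of all tested probes was 0.12. No direction is given, as no gene of the list passed. Apoc1, an apolipoprotein that inhibits LPL, read 89.8, 112.7 and 120.5 in retinas labelled Lrp5-/- and 173.7, 148.5 and 131.4 in WT (log2 fold change -0.49, SE 0.13, adjusted p = 0.564 by limma). Hspg2, which encodes the heparan sulfate proteoglycan perlecan, stood at -0.20 and the proprotein convertase Pcsk5 at -0.17. None of the 7 tested lipoprotein receptor genes passed (median 0.01), Lrp2 with -0.30, Abcg1 with -0.19 and Scarb1 with -0.17 having the smallest p.

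Inside the cell, none of the 17 tested genes of triglyceride turnover passed (median log2 fold change -0.02, range -0.19 to 0.11). The lipases Mgll and Pnpla2 stood at -0.19 and -0.16, and G0s2, an inhibitor of Pnpla2, at 0.09. Of the PPAR and RXR list, whose members include the receptors that drive Angptl4 in other tissues, none of 7 tested genes passed (median -0.05). Rxrg stood at -0.29, the coactivator Ppargc1a at -0.21 and Ppard at -0.17, while Ppara and Pparg had no probe that met the detection rule.

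Hypoxia is a known inducer of Angptl4, and genes of the hypoxia response were read beside it. Their part in the Angptl4 values was not tested. None of the 15 tested genes passed, but all 15 had positive log2 fold changes (median 0.25, range 0.07 to 0.50), beside 47.0% of all tested genes, and at least 13 did in each processing alternative. In 6 of the 15, at 1 probe per gene, the groups did not overlap, beside 10.7% of all tested probes. The list was chosen with earlier results of these data known, and its genes were read on the same 6 arrays. As no gene of it passed, these counts are a description and no direction is given. Ankrd37 read 644.1, 675.8 and 775.8 in retinas labelled Lrp5-/-, against 473.1, 498.3 and 508.8 in WT (log2 fold change 0.50, SE 0.10, adjusted p = 0.134 by limma). Adm, the vasodilator adrenomedullin, read 68.4, 71.2 and 76.2 in retinas labelled Lrp5-/- and 55.2, 52.5 and 49.5 in WT, where it was not detected, and so was at least 1.14-fold higher. It too entered the test only through the arrays labelled Lrp5-/- and had to differ. Pdk1, a kinase that restrains pyruvate oxidation, stood at 0.33.

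GPIHBP1 is a protein of endothelial cells, and most genes of these cells had negative values on the same arrays. Of 16 tested pan-endothelial genes out of 22 listed, 15 had negative log2 fold changes and 2 passed the test, both lower, with a median of -0.51. The groups did not overlap for 13 lower genes and for the 1 positive gene (0.25), beside 10.7% of all tested probes. An unadjusted p under 0.05 by limma was reached by 13 of the 16, beside 557 of all 11097 tested genes. In every alternative that tested all 16 genes 15 were negative. The count that passed, all lower, moved with the processing, being 0 without Lrp5-/- replicate 3, with a common median, with non-normalised signals and with 50 added to each signal, 1 without any other single array except WT replicate 1, 8 without WT replicate 1 and 9 with array weights. Their summed signal was 2377 to 2696 in retinas labelled Lrp5-/- and 3328 to 4148 in WT. Adgrl4 averaged 76.4 ± 2.35 in retinas labelled Lrp5-/- and 173 ± 32.6 in WT (SD, n = 3 each, log2 fold change -1.16, adjusted p = 0.0046 by limma). Cd93 stood at -0.90 on the log2 scale (adjusted p = 0.0302 by limma) and Ramp2 at -0.62, which did not pass. Vwf, at -1.27 the lowest of the list, was not detected in retinas labelled Lrp5-/- and so was at least 2.24-fold lower. It entered the test only through the WT arrays and had to differ, yet it counts among the 15 negative values. Angptl4 thus stood on the same side as these genes, and Gpihbp1 on the other, but the part of endothelial content in either was not tested.

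Genes of tip cells and of immature or fenestrated vessels went both ways, with 2 of 9 tested genes higher, none lower at the threshold and a median of 0.02. These counts moved as well, with 0 higher without Lrp5-/- replicate 2, 3 higher and 1 lower without WT replicate 1, 1 higher without any other single array, and 3 higher and 2 lower with array weights. With the replicate block 1 was higher. Plvap, a protein of fenestrated and immature endothelium, read 180.1, 194.8 and 163.0 in retinas labelled Lrp5-/-, against 102.0, 100.1 and 100 in WT (log2 fold change 0.83, adjusted p = 0.0046 by limma). Esm1, a tip cell marker, was not detected in WT and was at least 1.29-fold higher in retinas labelled Lrp5-/-. It is the other of the 2 genes called, but like Gpihbp1 it entered the test only through the arrays labelled Lrp5-/-, so it had to differ. Aplnr stood at -0.49 and did not pass. The summed signal of this list was 1375 to 1509 in retinas labelled Lrp5-/- and 1370 to 1447 in WT.

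Markers of other cell types were followed as well. Of the adipocyte list only 2 of 9 genes were tested, with neither called. The defining markers Adipoq, Plin1, Cidec and Retn had no probe that met the detection rule. Of 11 tested macrophage and microglia genes none passed (median -0.04), with summed signals of 1373 to 1454 in retinas labelled Lrp5-/- and 1352 to 1605 in WT. None of 6 tested pericyte and smooth muscle genes passed (median -0.10), Acta2 having 0.42 (adjusted p = 0.401 by limma). Retinal pigment epithelium genes had a median of -0.45 with none of 7 called. Single arrays decided this median, which was -0.25 without Lrp5-/- replicate 2, -0.73 without Lrp5-/- replicate 3, -0.23 without WT replicate 1, -0.77 without WT replicate 2 and -0.24 without WT replicate 3, and their summed signal varied among arrays of each group (3375 to 5095 in retinas labelled Lrp5-/- and 3176 to 5767 in WT). None passed among 3 erythrocyte genes (median -0.11), 9 Muller glia and astrocyte genes (median -0.07) and 9 rod genes (median -0.11). The part of these cells in the values of Gpihbp1 and Angptl4 was not tested.

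**Figure D4:**
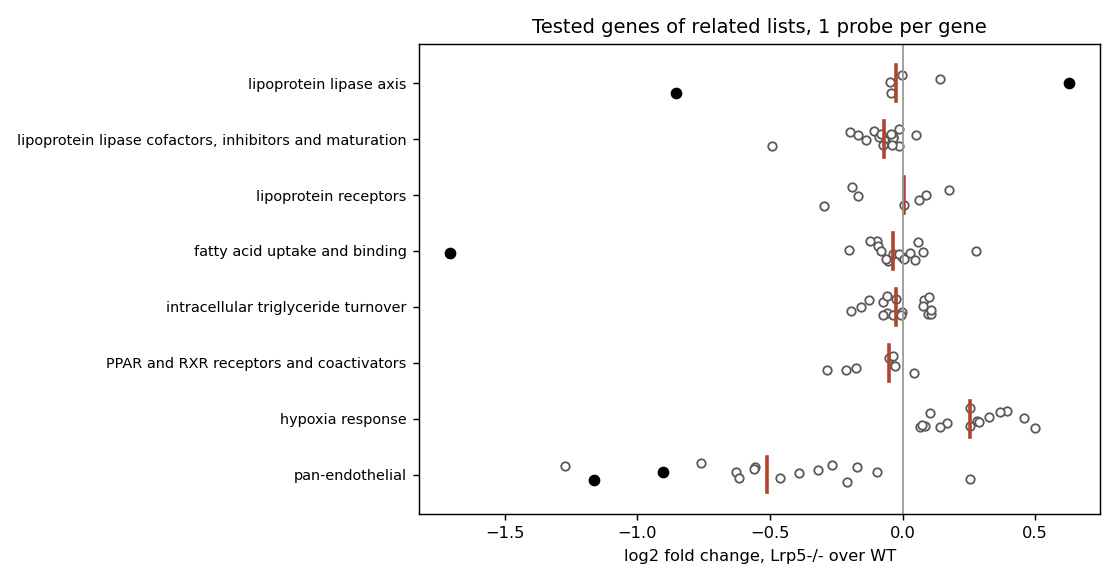
Log2 fold change (retinas labelled Lrp5-/- over WT) of the tested genes among the members, the pathway lists and the pan-endothelial list. Each list has 1 point per gene and a red bar at its median. The other marker lists are not drawn. Filled points passed an adjusted p of 0.05. The pan-endothelial genes lie mostly below 0 (median -0.51), the hypoxia genes all above it (median 0.25), and the lipid lists around it apart from Mfsd2a at -1.71.

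The genes whose signals ran most alike to each lead gene over the 6 arrays were found by Pearson's correlation of log2 signals, as a description. The 6 arrays fall into the 2 groups, so that any gene with a clean difference scores high, and 93 tested genes exceeded 0.9 with Gpihbp1 and 128 with Angptl4. Nearest to Gpihbp1 were Prr15 (r = 0.993, log2 fold change 0.38), the Lrp5 probe described above (0.992), Epop (0.990), Adh5 (0.986) and Nat8f4 (0.975). Nearest to Angptl4 were Arap3 (0.994, log2 fold change -0.80), the endothelial tight junction gene Cldn5 (0.994, -3.16), the transcription factor gene Foxq1 (0.993), the amino acid transporter gene Slc38a5 (0.991, -2.81) and Fstl1 (0.991, -0.17). In all of these the groups did not overlap. Foxq1 was not detected in retinas labelled Lrp5-/- and was at least 1.90-fold lower there. It entered the test only through the WT arrays, so it had to differ.

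The tested neighbours of the lead genes on the chromosome, looked up after the values were seen, did not share their differences at the threshold. Beside Gpihbp1, Zfp41 stood at 0.08 and Top1mt at 0.02, both on the same side. Ly6h and Gm34646, on the other side, were not tested. Beside Angptl4, Marchf2 stood at 0.17, Rab11b at -0.06 and Kank3 at -0.29 (SE 0.09, adjusted p = 0.816 by limma), and Rps28 was not tested. No annotated neighbour overlapped either gene.

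The call on Gpihbp1 depended on single arrays. It was lost on leaving out any one array other than WT replicate 1, with log2 fold changes of 0.58 to 0.67 over the 6 fits, whereas Angptl4 stayed past the threshold in all 6 (-0.89 to -0.81). Gpihbp1 kept its direction in the 19 alternatives that tested it, with 0.36 to 1.06. It was not tested where detection in all 6 arrays was asked for. Angptl4 kept its direction in all 20, with -1.25 to -0.58. Both genes were selected on this difference, and Gpihbp1 met the detection rule only through the arrays labelled Lrp5-/-. The kept directions therefore describe the processing and lend no support to the differences. Among these alternatives, the series table values equalled those fitted and had to give the same result.

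**Figure D5:**
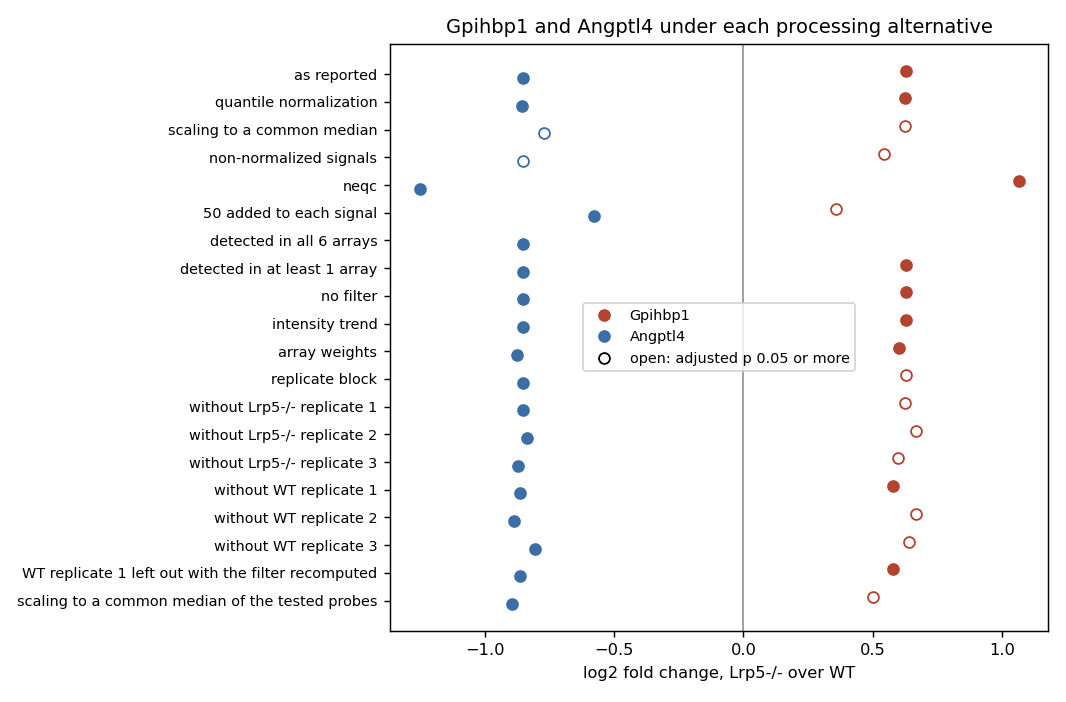
Log2 fold change (retinas labelled Lrp5-/- over WT) of Gpihbp1 (ILMN_2614842) and Angptl4 (ILMN_2759365) under each processing setting, 1 row per setting, with filled points past an adjusted p of 0.05. Gpihbp1 stays above 0 and passes in only part of the settings, and Angptl4 stays below 0 and passes in nearly all. Both genes were selected on this difference.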

How the data were processed

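The authors hybridised RNA of 6 retina samples (3 labelled Lrp5-/- and 3 WT, 1 mouse each, litters not given) to Illumina mouse whole-genome bead arrays and deposited, per array, bead intensity values after rank-invariant normalisation without background subtraction, the same intensity before normalisation, and a detection p-value for each probe. The series table held the normalised intensity and detection p-value unchanged (0 cells differed). No array column was left out. No genome build was named in the sources used here, so no position is printed.

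Probes were named by the platform annotation, in which 34885 probes had 1 gene symbol, 18 had several and 10378 had none. Of these, 34807 matched a RefSeq gene by identifier. Where several probes of a listed gene were tested, the brightest stood for it. Intensities were floored at 16 (1 value) and log2 transformed. Groups were compared with limma 3.58.1 (R 4.3.3, lmFit and eBayes, all 6 arrays, no covariate) over the 20721 probes detected at p under 0.05 on at least 3 arrays, with Benjamini-Hochberg adjustment over all of them and a threshold of 0.05. The study's methods name SAM, which permutes samples and was not run. The fit was tested on simulated data. Each p-value sets a group difference against the spread between these arrays, with each probe's variance drawn towards that of all tested probes. Differences between litters or stocks are not separated by it.

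The members, the 6 pathway lists and the marker lists were chosen with earlier results of these data known. The genes named are all members, each listed gene past the threshold, up to 3 per list with the smallest p, and the 5 genes most correlated with Gpihbp1 and with Angptl4. Neighbouring genes were added after the values were seen. Alternatives covered normalisation, background, floor, detection filter, model and single arrays. The arrays' slides are not named in the tables, so no slide block was fitted.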

Additional observations from a re-analysis of the deposited data

How the results depend on the processing

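The number of member probes past the threshold was 2 in the fit reported and also with quantile normalisation, neqc, detection on at least 1 array, no filter, an intensity trend, array weights, the probe filter recomputed without WT replicate 1, and the values of the series table. It was 0 with non-normalised signals and with scaling to a common median, and 1 (Angptl4) with 50 added to each signal, with detection in all 6 arrays, where Gpihbp1 was not tested, and with scaling to the median of the tested probes, an alternative chosen after seeing the data. With single arrays left out it was 1 to 2, being 2 only without WT replicate 1. The median log2 fold change of the tested member probes was 0.18 with a common median, which moved the median of all tested probes to 0.12, 0.10 with non-normalised signals, 0.057 with the median of the tested probes and -0.04 to 0.02 with single arrays left out. The causes were not tested. Over all probes, 24 were called in the fit reported, 98 with array weights, 85 without WT replicate 1 (81 with the filter recomputed), 10 to 13 without any other single array, 11 with 50 added, 10 with the median of the tested probes, 2 with non-normalised signals and 0 with a common median. Gpihbp1 passed in 9 of 19 alternatives and Angptl4 in 18 of 20. No other member passed in any. The members were selected on this difference, so their tallies describe the processing only. The Lrp5 probe passed in 10 of 19, and in 2 of the 6 fits without a single array. These tallies include the series table, whose values equalled those of the fit reported (0 cells differed), so that it had to give the same result. They also include the fits without WT replicate 1 with the filter kept and recomputed, which gave Gpihbp1 the same log2 fold change (0.58). The 10 expressed member probes stayed 10 at a detection p under 0.01.

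The replicate numbers of the titles gave no sign of pairing between arrays, though 3 arrays per group cannot exclude a pairing in handling. Same-numbered arrays had correlations of -0.21, -0.15 and -0.28 between their deviations from the group means, and 0 of the 3 arrays labelled Lrp5-/- correlated best with its own number. With the replicate block, 1 member probe (Angptl4) and 13 probes over all were called, and the median log2 fold change of the member probes was -0.02.

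Over the same alternatives the median of the hypoxia list ranged between 0.19 and 0.40 and that of the pan-endothelial list between -0.65 and -0.33. For dim probes such as those of Gpihbp1, signal over background limits what these arrays can show.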
